A study of Arabidopsis thaliana with 24 samples.

Results

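The 10 genes described here build leaf starch, break it down, or carry glucose 6-phosphate across the chloroplast envelope. They were taken from the deposited expression table by their locus identifiers, 10 of its 34218 genes: APL1, APL3, ADG1 and GBSS1 of starch synthesis, GWD1, BAM1, BAM3, BAM9 and DPE2 of starch breakdown, and the transporter gene GPT2. Transcript levels come from RNA-seq of mature leaves of 35-day-old Arabidopsis thaliana, 1 plant per library. The 6 groups of 4 libraries were Col-0, BBX32-10 and hy5-2, each in low light (LL, 150 µmol m-2 s-1, the growth light) and after 3.5 h in white LED high light (HL, 1100 µmol m-2 s-1). Col-0 is the wild type, BBX32-10 is a single line over-expressing the B-box gene BBX32, and hy5-2 carries a null allele of HY5, which encodes a bZIP transcription factor, both in the Col-0 background. The promoter driving BBX32 in that line was not given in the sources used here. HL began in the morning of a short day. The LL plants were run in parallel, but the labels do not state their hour of sampling. The study's question was whether both lines, described by the submitters as not acclimating to sustained HL, affect similar genes during a short exposure.

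Leaf starch is laid down in chloroplasts by day and consumed at night. ADP-glucose pyrophosphorylase, made of a catalytic small subunit and regulatory large subunits, forms the glucosyl donor, and starch synthases add its glucose to growing chains. At night the granule surface is phosphorylated, β-amylases release maltose, and maltose leaves the chloroplast to be metabolised in the cytosol. Transcripts of many of these enzymes are known to follow the time of day. GPT2 encodes a glucose 6-phosphate and phosphate exchanger of the plastid envelope that is known to rise with sugar and with an increase in light and to be needed for photosynthetic acclimation in Arabidopsis.

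Levels are given as FPKM, fragments per kilobase of transcript scaled to sequencing depth, so that they can be compared between genes of different length. Between 263 and 38318 fragments stood behind a gene's value in a library, with the lowest number at GPT2 in an LL library. BBX32 followed the genotype labels, as did HY5 in hy5-2 against Col-0. BBX32 was at 2.27 to 16.6 FPKM in Col-0 and hy5-2, 810 to 897 FPKM in BBX32-10 LL and 364 to 1049 FPKM in BBX32-10 HL, with replicate 1 at 364. HY5 was at 0.196 to 0.929 FPKM in hy5-2 against 6.26 to 24.4 FPKM in Col-0. In BBX32-10 it was at 30.7 to 46.5 FPKM, above every Col-0 library. The labels do not give this higher HY5 level, and its part in the BBX32-10 results was not tested. Leaf markers were high throughout, and none of 8 markers of root, meristem, flower and seed averaged 1 FPKM, with RHD6, PLT1, WUS and OLE1 listed at 0 in all 24 libraries. All 5 phloem markers were expressed, and their summed level was 328 to 374 FPKM in BBX32-10 LL and 295 to 388 FPKM in BBX32-10 HL, against 181 to 250.3 FPKM over all Col-0 libraries and 183 to 239 FPKM over all hy5-2 libraries. The phloem sum thus stood apart wherever BBX32-10 is compared with Col-0 or hy5-2, and its part in those results was not tested. The summed guard cell and epidermis markers overlapped between all groups, and the 5 mesophyll markers were expressed everywhere. Their sum in Col-0 was 22122 to 25253 FPKM before and 26536 to 30968 FPKM after HL. It was 21149 to 24966 FPKM before and 18717 to 27540 FPKM after HL in BBX32-10, and 23781 to 28500 FPKM before and 30341 to 35607 FPKM after HL in hy5-2. The mesophyll sum thus moved with HL in Col-0 and hy5-2, and after HL every BBX32-10 library lay below every hy5-2 library. Its part in the HL results and in the comparison of the lines in HL was not tested. In whole leaves, fewer cells of a type and less RNA per cell cannot be told apart.

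In Col-0, HL raised GPT2, GBSS1 and BAM3 several-fold and ADG1 and GWD1 more modestly, while APL1, the main large subunit in leaves, fell. APL3 also rose, a call near the threshold. In hy5-2, HL raised the same 6 genes (GPT2, GBSS1, BAM3, GWD1, ADG1 and APL3) and lowered BAM9. In BBX32-10, GPT2 and ADG1 rose and BAM9 fell, and the differences of GBSS1, BAM3 and GWD1 did not pass the test. In LL, BBX32-10 already held more BAM3, BAM9 and GBSS1 RNA than Col-0 and less ADG1 and DPE2. After HL its GPT2, GBSS1, ADG1, GWD1 and DPE2 RNA all lay below Col-0.

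Each difference was tested with limma on log2(FPKM + 1) over all 17788 genes with at least 1 FPKM in at least 4 libraries, and called when its adjusted p was under 0.05. All 10 genes entered the test. HL changed 7 of the 10 in Col-0, 6 higher and 1 lower, where 51.6% of all tested genes were called, 30% higher and 21.6% lower. In BBX32-10 it changed 3, with 2 higher and 1 lower, where 19.6% of all genes were called, 10.7% higher and 8.85% lower. In hy5-2 it changed 7, with 6 higher and 1 lower, where 43.5% were called, 23.1% higher and 20.4% lower. The median HL difference of the 10 genes was 0.44 on the log2 scale for Col-0, 0.10 for BBX32-10 and 0.47 for hy5-2, beside medians of 0.05, 0.02 and -0.0019 over all tested genes. These 3 comparisons share no libraries with one another, but the interactions and the comparisons between genotypes below reuse the same libraries.

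BBX32-10 differed from Col-0 in 7 of the 10 genes in LL, 4 higher and 3 lower, where 42.5% of all genes were called, 25.8% higher and 16.7% lower. In HL it also differed in 7, with 2 higher and 5 lower, where 23.6% were called, 10.9% higher and 12.7% lower. The hy5-2 mutant differed from Col-0 in 1 of the 10 genes in LL and in 1 in HL, GBSS1 and higher in both. In LL 0.371% of all genes were called in this comparison, 0.174% higher and 0.197% lower, and in HL 2.41%, 0.349% higher and 2.06% lower. The response to HL differed between BBX32-10 and Col-0 (the interaction of line and light) for 4 of the 10 genes, all with a smaller rise in BBX32-10, where 19.8% of all genes were called, 6.95% with a higher and 12.9% with a lower value. The limma interaction of hy5-2 with HL called 0 of the 10, with 1 at an unadjusted p under 0.05 and 0 called by limma voom on recovered fragments, where 0.652% of all genes were called, 0.0281% with a higher and 0.624% with a lower value. In LL, hy5-2 differed from BBX32-10 in 6 genes, 4 higher and 2 lower, where 39.5% were called, 13.7% higher and 25.7% lower. In HL it differed in 7, with 5 higher and 2 lower, where 32.5% were called, 11.6% higher and 21% lower.

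**Figure D1:**
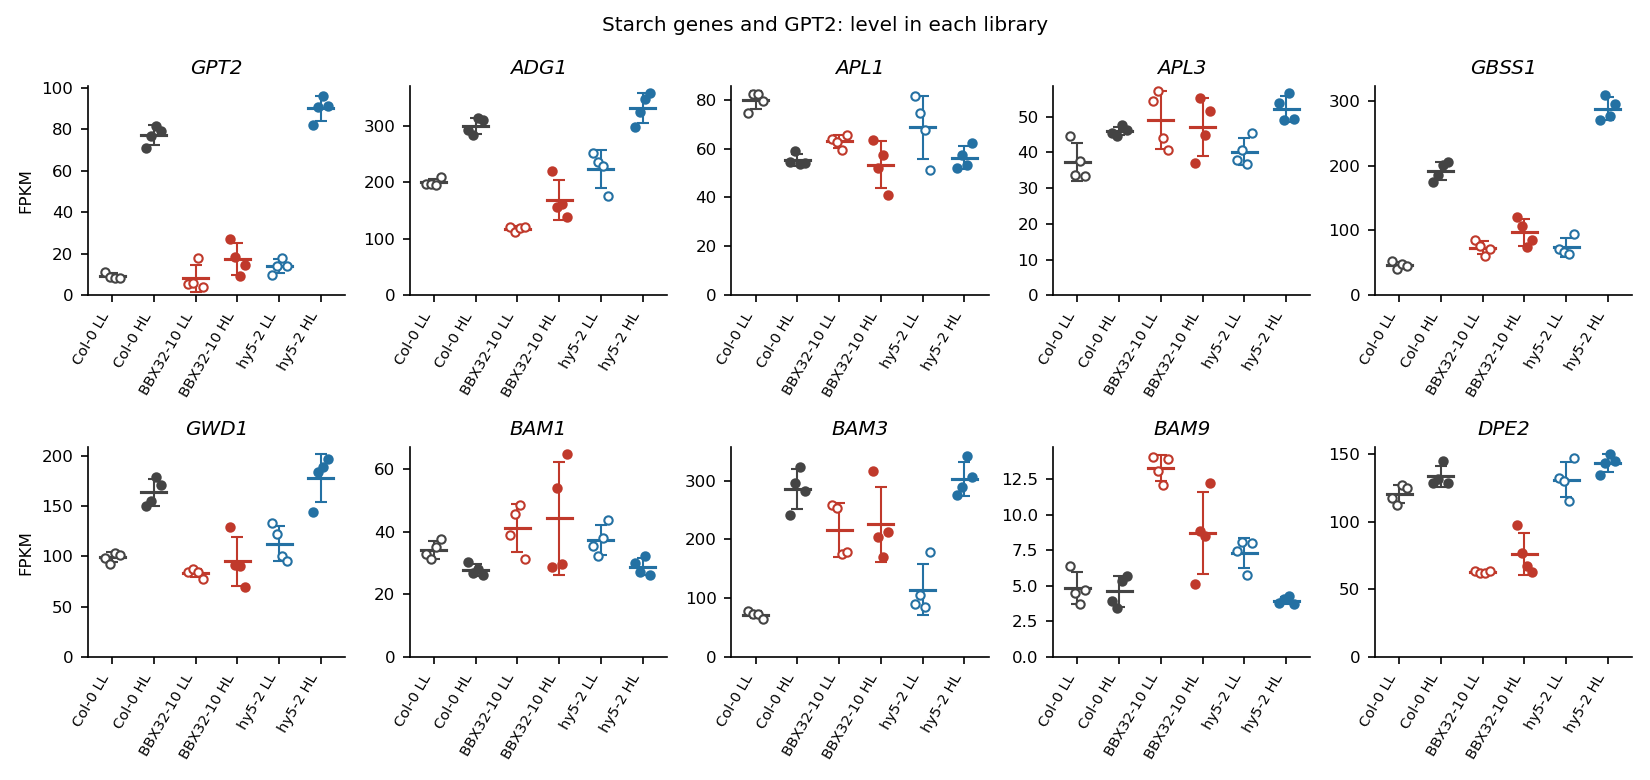
Level of each gene in every library, in FPKM on linear axes that start at 0. Open points are LL and filled points HL libraries (grey Col-0, red BBX32-10, blue hy5-2), and bars give the group mean and SD (n = 4). GPT2, GBSS1 and BAM3 rise steeply from LL to HL in Col-0 and hy5-2, whereas in BBX32-10 HL GPT2 stays between 9.52 and 27.3 FPKM.

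The 250 bases before the start of the annotated transcript are printed for 4 genes: GPT2, GBSS1 and BAM3, whose rise in HL was smaller in BBX32-10, and BAM9, which was higher in BBX32-10 in LL and in HL. They were read from the TAIR10.1 genome on the strand of each gene, at chr1:22824164-22824413 (plus strand) for GPT2, chr1:11923867-11924116 (minus) for GBSS1, chr4:9607403-9607652 (minus) for BAM3 and chr5:6225706-6225955 (plus) for BAM9. Both strands were searched for the G-box CACGTG and its ACGT core, which bZIP factors such as HY5 are known to bind, for the evening element AAAATATCT known from clock-regulated genes, and for the I-box GATAAG known from light-regulated genes. Capitals mark matches.
GPT2: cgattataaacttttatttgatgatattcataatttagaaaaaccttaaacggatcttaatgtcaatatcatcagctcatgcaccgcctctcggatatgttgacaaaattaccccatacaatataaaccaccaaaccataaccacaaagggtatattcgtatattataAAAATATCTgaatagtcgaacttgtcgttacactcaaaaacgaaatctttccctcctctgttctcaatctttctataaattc
GBSS1: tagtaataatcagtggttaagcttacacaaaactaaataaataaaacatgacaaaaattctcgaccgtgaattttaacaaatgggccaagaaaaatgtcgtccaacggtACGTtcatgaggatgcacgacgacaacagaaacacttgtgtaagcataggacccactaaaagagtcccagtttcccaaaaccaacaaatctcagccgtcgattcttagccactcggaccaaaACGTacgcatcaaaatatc
BAM3: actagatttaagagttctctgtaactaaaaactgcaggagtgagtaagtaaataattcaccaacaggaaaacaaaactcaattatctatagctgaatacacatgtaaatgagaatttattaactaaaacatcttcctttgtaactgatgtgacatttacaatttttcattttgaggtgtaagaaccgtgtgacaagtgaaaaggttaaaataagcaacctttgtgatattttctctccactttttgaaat
BAM9: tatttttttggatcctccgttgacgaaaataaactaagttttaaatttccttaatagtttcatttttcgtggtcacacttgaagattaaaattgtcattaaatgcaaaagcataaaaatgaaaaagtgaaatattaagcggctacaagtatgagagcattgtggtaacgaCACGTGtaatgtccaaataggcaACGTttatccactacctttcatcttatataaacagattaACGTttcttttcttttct

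The GPT2 window held an evening element whose first base lay 82 bases before the start. The GBSS1 window held 2 ACGT cores, at 141 and 19 bases before the start, and none of the 4 motifs was in the BAM3 window. BAM9 was the 1 gene of the 10 with a whole G-box, at 80 bases before the start, and it held 2 further ACGT cores, at 57 and 18 bases. Over the windows of 17672 tested genes, 7.447% held a G-box, 44.01% an ACGT core, 2.546% an evening element and 12.47% an I-box. Among the 10 genes, 6 held an ACGT core, 1 an evening element and 0 an I-box, and these counts describe the letters only. In GWD1 an evening element straddled the transcript start, with 4 bases before it and 5 after it.

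ADG1 (AT5G48300, chromosome 5, 19570238 to 19572804 in TAIR10.1, 8 exons, named APS1 in the deposited table) encodes the small catalytic subunit of ADP-glucose pyrophosphorylase. In Col-0 its 4 libraries were at 197, 197, 195 and 210.3 FPKM in LL and at 293, 284, 314 and 311 in HL. In BBX32-10 they were at 120.4, 113, 119 and 121 FPKM in LL and at 219.5, 156, 162 and 139 in HL. In hy5-2 they were at 253, 237, 228 and 175 FPKM in LL and at 299, 325, 348 and 358 in HL. HL libraries lay above LL libraries in each genotype without overlap, and the BBX32-10 libraries lay below the Col-0 libraries in LL and again in HL. The HL rise was 0.58 ± 0.11 (log2, SE) for Col-0, 0.49 ± 0.11 for BBX32-10 and 0.58 ± 0.11 for hy5-2, with adjusted p of 0.000146, 0.00341 and 0.000236. BBX32-10 minus Col-0 was -0.75 in LL and -0.85 in HL, with adjusted p of 1.35e-05 and 1.35e-05. The ADG1 response itself did not pass the test of a difference between BBX32-10 and Col-0 (interaction -0.09, 95% interval -0.42 to 0.23), so the gene was lower in BBX32-10 in both lights.

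APL1 (AT5G19220, chromosome 5, 6463824 to 6466831, 15 exons, named ADG2 in the deposited table) encodes the large subunit that predominates in leaves. Its annotation overlaps AT5G19221 on the opposite strand over 2386 bases and AT5G19210 over 43 bases. AT5G19221 was listed at 0 in every library, and because strand use was not stated the split of reads between them is uncertain. Col-0 libraries were at 74.6, 82.4, 82.5 and 79.6 FPKM in LL and at 54.5, 59.1, 53.7 and 54.1 in HL, with no overlap. HL lowered APL1 in Col-0 by 0.52 ± 0.12 (log2, SE; adjusted p = 0.000812). In hy5-2 the LL libraries were spread from 51.4 to 81.6 FPKM and overlapped the HL range of 52.0 to 62.2. The HL differences of -0.25 in BBX32-10 and -0.27 in hy5-2 were not called, with adjusted p of 0.143 and 0.0694. Without replicate 1 of BBX32-10 HL the former was -0.34 (adjusted p = 0.0475), and without replicate 4 of hy5-2 LL the latter was -0.40 (adjusted p = 0.00413). BBX32-10 LL lay at 59.5 to 65.7 FPKM, below every Col-0 LL library, a difference of -0.34 (adjusted p = 0.0251). That call was lost in fits without replicate 2 or 3 of Col-0 LL or replicate 3 of BBX32-10 LL, the last with an adjusted p of 0.0662.

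APL3 (AT4G39210, chromosome 4, 18259547 to 18263468, 15 exons) encodes another large subunit, better known from sink tissues and from sugar feeding. Its group means were close, from 37.4 ± 5.24 FPKM (SD, n = 4) in Col-0 LL to 52.2 ± 3.70 in hy5-2 HL, and neighbouring groups in that order overlapped. In hy5-2 the HL libraries, at 49.0 to 56.7 FPKM, all lay above the LL libraries, at 36.9 to 45.5, a rise of 0.37 ± 0.12 (adjusted p = 0.0155). The Col-0 rise of 0.30 was called at an adjusted p of 0.0381, but 7 of the 8 fits that left out a Col-0 library lost it, as did rescaled libraries (0.22, adjusted p = 0.157), the fit with no filter (adjusted p = 0.0522) and the replicate block (adjusted p = 0.0546). In LL, BBX32-10 was higher than Col-0 by 0.38 (adjusted p = 0.0133), with ranges of 40.6 to 57.4 and 33.5 to 44.7 FPKM that overlapped. Rescaled libraries put that difference at 0.29 (adjusted p = 0.0719), and leaving out replicate 2 of BBX32-10 LL put it at 0.30 (adjusted p = 0.0594).

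The balance of the large subunits differed between lights in Col-0. The ratio of APL1 to APL3 in FPKM was 2.17 ± 0.352 (SD, n = 4) in LL and 1.204 ± 0.0842 in HL, where no library overlapped the LL range. In BBX32-10 it was 1.31 ± 0.233 in LL and 1.18 ± 0.406 in HL, with overlapping ranges. In hy5-2 it was 1.74 ± 0.433 in LL and 1.09 ± 0.157 in HL, also overlapping. The ratio of ADG1 to APL1 in Col-0 was 2.51 ± 0.151 before and 5.45 ± 0.475 after HL. It was 1.88 ± 0.0861 and 3.17 ± 0.309 in BBX32-10, and 3.27 ± 0.155 and 5.92 ± 0.403 in hy5-2, so that small-subunit RNA gained on APL1 RNA in HL in every genotype without overlap.

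GBSS1 (AT1G32900, chromosome 1, 11920390 to 11923866, minus strand, 13 exons) encodes granule-bound starch synthase, which makes amylose, and its RNA is known to follow the circadian clock. Col-0 libraries were at 52.6, 40.4, 48.1 and 45.6 FPKM in LL and at 175, 186, 202 and 205 in HL. BBX32-10 libraries were at 85.1, 76.4, 60.8 and 71.7 FPKM in LL and at 121, 106, 75.0 and 84.9 in HL. Those of hy5-2 were at 71.1, 66.6, 63.4 and 95.2 FPKM in LL and at 270.0, 309, 277 and 296 in HL. HL and LL libraries were far apart in Col-0 and hy5-2 and overlapped in BBX32-10. The rise was 2.02 ± 0.14 (log2, SE; adjusted p = 2.16e-10) in Col-0 and 1.96 ± 0.14 (adjusted p = 5.88e-10) in hy5-2, ratios of means of 4.11 and 3.89. In BBX32-10 the difference was 0.38 (95% interval 0.10 to 0.66), with an adjusted p of 0.0534 that missed the threshold. It was called in 3 of the 8 fits that left out a library and with a mean of at least 5 FPKM (adjusted p = 0.0485). The responses of BBX32-10 and Col-0 differed by -1.64 ± 0.19 (adjusted p = 8.74e-06), and all 16 fits that left out a library called this difference.

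The order of the lines for GBSS1 changed with light. In LL, every BBX32-10 library lay above every Col-0 library, a difference of 0.64 (adjusted p = 0.000693), whereas in HL every BBX32-10 library lay below every Col-0 library, a difference of -1.0004 (adjusted p = 1.98e-05). In hy5-2, GBSS1 lay above Col-0 without overlap in LL and in HL, by 0.64 (adjusted p = 0.0332) and 0.58 (adjusted p = 0.0206). Both hy5-2 calls were near the threshold: 2 of 8 fits that left out a library kept the first and 4 of 8 the second, and rescaled libraries gave adjusted p of 0.0971 and 0.0529. Without replicate 4 of hy5-2 LL, the highest of its group at 95.2 FPKM, the LL difference was 0.52 (adjusted p = 0.135).

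**Figure D2:**
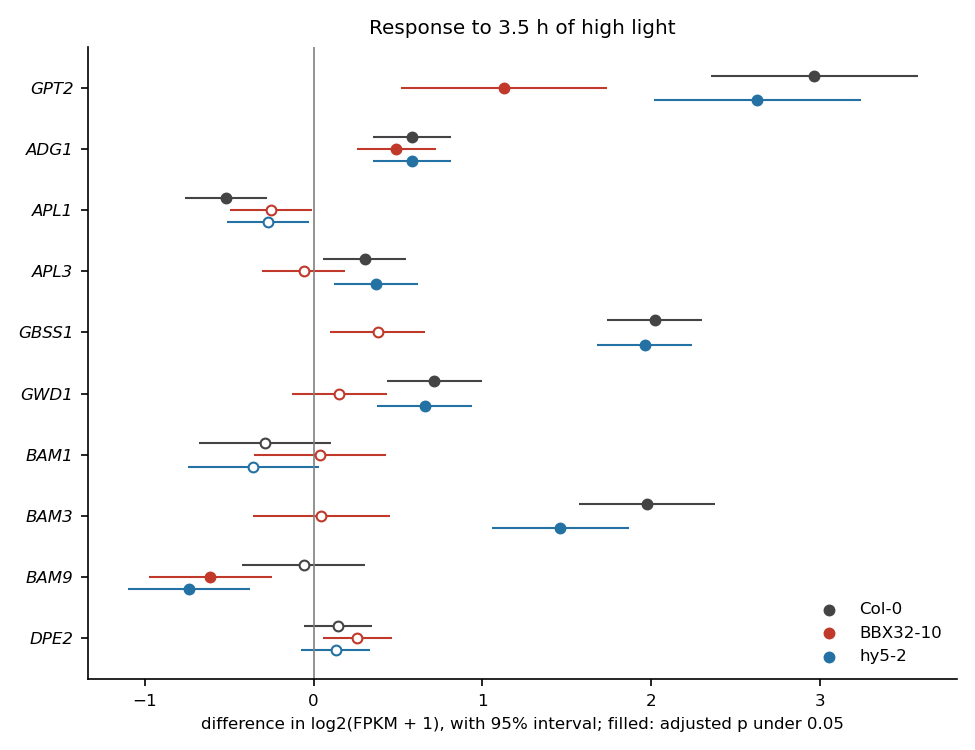
Difference between HL and LL for each gene on the log2(FPKM + 1) scale with its 95% interval from limma, by genotype. Filled points were called (adjusted p under 0.05). GBSS1 stands at 2.02 in Col-0 and 1.96 in hy5-2 but at 0.38 in BBX32-10, and BAM3 at 1.97, 1.46 and 0.05.

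GWD1 (AT1G10760, chromosome 1, 3580830 to 3590928, minus strand, 35 exons) encodes glucan, water dikinase, which phosphorylates the granule at the start of breakdown. Its libraries were at 98.6, 92.6, 104 and 101 FPKM in Col-0 LL and at 149.5, 155, 179 and 170.3 in Col-0 HL. In BBX32-10 they were at 84.5, 87.5, 84.5 and 77.5 FPKM in LL and at 129, 91.7, 89.9 and 69.9 in HL. Those of hy5-2 were at 133, 122, 100.1 and 95.5 FPKM in LL and at 144, 183, 189 and 196 in HL. HL lay above LL without overlap in Col-0 and hy5-2, and in BBX32-10 the HL libraries lay on both sides of the LL range. The rise was 0.71 ± 0.14 (log2, SE; adjusted p = 0.000142) in Col-0 and 0.66 ± 0.14 (adjusted p = 0.000476) in hy5-2, and the difference in BBX32-10 was 0.15 (95% interval -0.13 to 0.43, adjusted p = 0.477). In HL, BBX32-10 was lower than Col-0 by 0.81 on the log2 scale (adjusted p = 0.000187), and no BBX32-10 library reached the lowest Col-0 library. The interaction of -0.56 was called at an adjusted p of 0.0422, a call that 3 of 16 fits without a library kept and that was lost with rescaled libraries, no filter or the replicate block (adjusted p = 0.0568). In LL the BBX32-10 difference from Col-0 of -0.24 (adjusted p = 0.156) was called when only these groups were fitted (adjusted p = 0.00512).

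BAM1 (AT3G23920, chromosome 3, 8641181 to 8644449, 4 exons) encodes a plastid β-amylase known from stress and from guard cells. Its group means lay between 27.8 ± 1.91 FPKM (SD, n = 4) in Col-0 HL and 44.3 ± 18.1 in BBX32-10 HL, and neighbouring groups overlapped. HL called no difference in BAM1 in any genotype, with log2 differences of -0.29 (Col-0), 0.04 (BBX32-10) and -0.36 (hy5-2). When only the groups compared were fitted, the Col-0 and hy5-2 differences passed, with adjusted p of 0.00796 and 0.0289. In BBX32-10 HL the libraries split, with replicates 2 and 4 at 54.0 and 65.0 FPKM and replicates 1 and 3 at 28.8 and 29.6, the latter within the Col-0 HL range of 26.0 to 30.4. The resulting difference from Col-0 of 0.57 (adjusted p = 0.0317) was kept in 3 of 8 fits without a library. Without replicate 4 of BBX32-10 HL it was 0.36. The call was also lost with no filter (adjusted p = 0.051) and with only the groups compared (adjusted p = 0.163).

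BAM3 (AT4G17090, chromosome 4, 9604962 to 9607402, minus strand, 4 exons) encodes the main β-amylase of leaf starch breakdown. Its annotation holds AT4G06665 on the opposite strand, identical over 518 bases and listed at 0 in every library, so the assignment of those reads is uncertain. Col-0 libraries were at 78.6, 72.2, 72.2 and 64.6 FPKM in LL and at 242, 297, 324 and 282 in HL. BBX32-10 libraries were at 258, 254, 176 and 178 FPKM in LL and at 317, 203, 169.7 and 213 in HL. Those of hy5-2 were at 90.3, 104, 84.9 and 179 FPKM in LL and at 276, 289, 343 and 307 in HL. BBX32-10 thus held in LL a BAM3 level that overlapped Col-0 HL, and its own LL and HL libraries overlapped.

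The BAM3 rise in HL was 1.97 ± 0.20 (log2, SE; adjusted p = 3.51e-08) in Col-0 and 1.46 ± 0.20 (adjusted p = 4.05e-06) in hy5-2. In BBX32-10 the difference was 0.05, with a 95% interval of -0.36 to 0.45. The interaction of BBX32-10 with HL was -1.93 ± 0.28 (adjusted p = 7.56e-05) and was called in all 16 fits without a library. It came with a higher starting level: in LL, BBX32-10 exceeded Col-0 by 1.56 (adjusted p = 1.61e-06), a ratio of means of 3.01, and in HL the difference was -0.37 (adjusted p = 0.177). Without replicate 1 of BBX32-10 HL, the HL difference was -0.55 and was called (adjusted p = 0.0295). The hy5-2 interaction of -0.51 was not called (95% interval -1.09 to 0.06). Nor was the higher LL level of hy5-2 over Col-0, 0.60 with an adjusted p of 0.185, although the 4 libraries lay above all 4 of Col-0 LL. Replicate 4 of hy5-2 LL stood at 179 FPKM against 84.9 to 104 in the other 3, and without it the difference was 0.37.

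BAM9 (AT5G18670, chromosome 5, 6225956 to 6228195, 3 exons) encodes a β-amylase-like protein that lacks catalytic activity. It was the lowest of the 10 genes in HL, and over all 24 libraries it had 280 to 1214 fragments per library. It overlaps AT5G18680 on the opposite strand over 33 bases. Col-0 libraries were at 6.42, 4.49, 3.75 and 4.67 FPKM in LL and at 3.95, 3.46, 5.35 and 5.68 in HL. BBX32-10 libraries were at 14.1, 13.1, 12.1 and 13.9 FPKM in LL and at 5.15, 8.88, 8.53 and 12.2 in HL. Those of hy5-2 were at 7.46, 8.07, 5.75 and 7.99 FPKM in LL and at 3.79, 4.10, 4.27 and 3.68 in HL. All 4 BBX32-10 LL libraries lay above every Col-0 library, while in HL the replicate 1 library of BBX32-10 lay within the Col-0 range.

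BBX32-10 exceeded Col-0 in BAM9 by 1.31 ± 0.18 (log2, SE; adjusted p = 3.69e-06) in LL and by 0.76 ± 0.18 (adjusted p = 0.00325) in HL. The HL difference missed the threshold when only the groups compared were fitted (adjusted p = 0.0627). HL lowered BAM9 in hy5-2 by 0.74 (adjusted p = 0.00173) and in BBX32-10 by 0.61 (adjusted p = 0.0166), and in Col-0 the difference was -0.06 (95% interval -0.42 to 0.31). The BBX32-10 fall was not called without replicate 1 of BBX32-10 HL (-0.41, adjusted p = 0.0618) or with only the groups compared (adjusted p = 0.0818). Without replicate 4 of BBX32-10 HL, the interaction of BBX32-10 with HL was -0.72 and called (adjusted p = 0.0361). With all libraries neither interaction was called, at -0.55 (adjusted p = 0.122) for BBX32-10 and -0.68 (adjusted p = 0.243) for hy5-2.

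DPE2 (AT2G40840, chromosome 2, 17044932 to 17051062, 23 exons) encodes the cytosolic glucanotransferase that uses maltose exported from the chloroplast. Its libraries were at 118, 112, 127 and 125 FPKM in Col-0 LL and at 128, 132, 145 and 128 in Col-0 HL. In BBX32-10 they were at 63.2, 61.8, 61.6 and 63.4 FPKM in LL and at 97.4, 76.4, 67.5 and 62.9 in HL. Those of hy5-2 spanned 115 to 147 FPKM in LL and 134 to 150.2 in HL. The BBX32-10 libraries all lay below the Col-0 and hy5-2 libraries. BBX32-10 was lower than Col-0 by 0.94 on the log2 scale in LL (adjusted p = 1.31e-07) and by 0.82 in HL (adjusted p = 3.96e-06), and every fit without a library called both. HL itself called no DPE2 difference, with 0.14 in Col-0 (95% interval -0.06 to 0.35), 0.26 in BBX32-10 (adjusted p = 0.0646) and 0.13 in hy5-2. The BBX32-10 difference was called in 2 of the 8 fits without a library, those leaving out replicate 3 or 4 of BBX32-10 HL.

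GPT2 (AT1G61800, chromosome 1, 22824414 to 22826902, plus strand, 5 exons) was near the bottom of the 10 genes in LL and rose more than any other of them in HL in Col-0. Col-0 libraries were at 11.2, 8.85, 8.19 and 8.11 FPKM in LL and at 70.9, 76.7, 81.8 and 79.4 in HL. BBX32-10 libraries were at 5.33, 5.80, 17.8 and 3.91 FPKM in LL and at 27.3, 18.6, 9.52 and 14.5 in HL. Those of hy5-2 were at 9.91, 14.2, 17.9 and 14.0 FPKM in LL and at 82.2, 90.6, 96.2 and 91.4 in HL. Every BBX32-10 HL library lay below every Col-0 HL library, and the BBX32-10 LL and HL libraries overlapped, with LL replicate 3 above HL replicates 3 and 4.

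The GPT2 rise was 2.96 ± 0.30 (log2, SE; adjusted p = 3.84e-08) in Col-0, 2.63 ± 0.30 (adjusted p = 4.39e-07) in hy5-2 and 1.13 ± 0.30 (adjusted p = 0.00949) in BBX32-10. The BBX32-10 rise was called in all 8 fits without a library, at 0.89 to 1.54, and was not called when only the 2 BBX32-10 groups were fitted (adjusted p = 0.12). The responses of BBX32-10 and Col-0 differed by -1.84 ± 0.42 (adjusted p = 0.00357), called in all 16 fits without a library. In HL, BBX32-10 was lower than Col-0 by 2.17 ± 0.30 on the log2 scale (adjusted p = 1.94e-05), with means of 17.5 ± 7.54 and 77.2 ± 4.68 FPKM (SD, n = 4). In LL the difference was -0.33 (adjusted p = 0.382), and without replicate 3 of BBX32-10 LL it was -0.75 and called (adjusted p = 0.0116). In hy5-2 HL, the 4 libraries lay above those of Col-0 HL, but the difference of 0.22 (95% interval -0.39 to 0.83) was not called. That interval rests on the spread shared by all groups, including the widely spread BBX32-10 libraries. None of the alternative limma fits called the difference (lowest adjusted p = 0.128).

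GPT1, the constitutive paralogue of the transporter, was chosen for comparison after its values were seen. The ratio of GPT2 to GPT1 in FPKM was 0.703 ± 0.101 (SD, n = 4) before and 7.14 ± 0.614 after HL for Col-0. It was 0.952 ± 0.136 and 9.93 ± 1.91 in hy5-2. In BBX32-10 it was 0.549 ± 0.437 in LL and 1.35 ± 0.611 in HL, where the highest library, at 2.09, lay below the lowest Col-0 HL library, at 6.41. HL lowered GPT1 in Col-0 by 0.23 (adjusted p = 0.0496) and in hy5-2 by 0.60 (adjusted p = 3.72e-05).

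For the 9 genes other than GBSS1, no difference between hy5-2 and Col-0 passed the test in LL or HL. In LL the largest of these differences were 0.60 for BAM3 (95% interval 0.20 to 1.01), 0.56 for GPT2 (-0.06 to 1.17) and 0.52 for BAM9 (0.16 to 0.89). In HL they lay between -0.16 for BAM9 (-0.52 to 0.20) and 0.22 for GPT2.

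**Figure D3:**
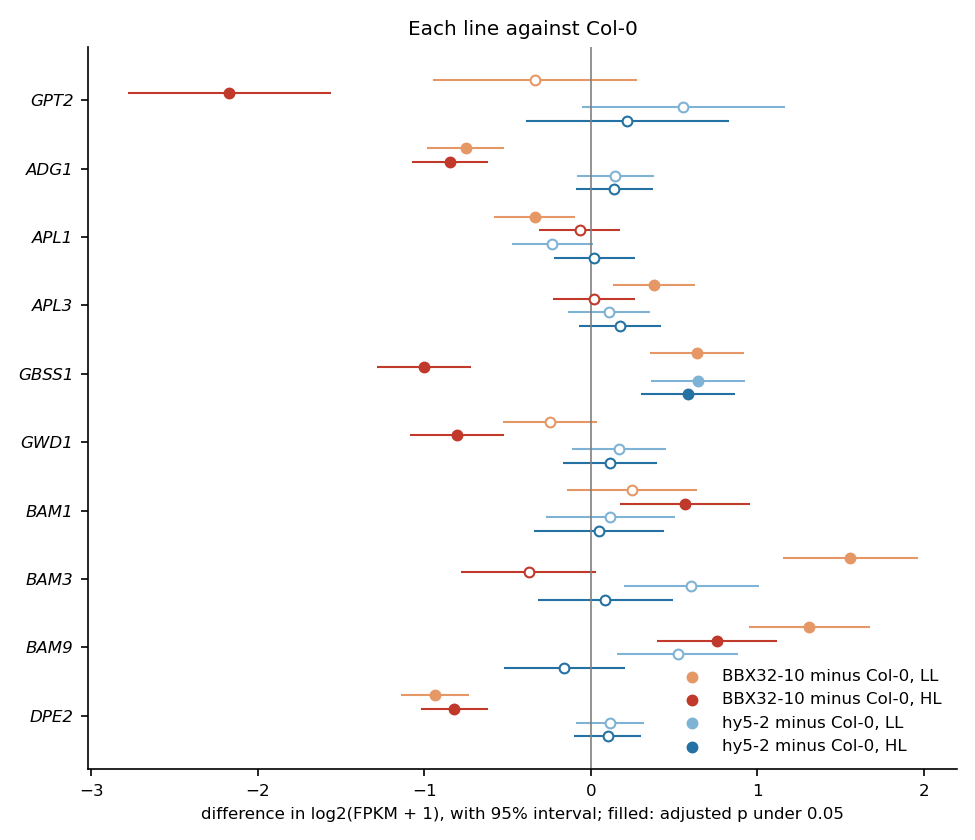
Difference of BBX32-10 and of hy5-2 from Col-0 in LL and in HL, on the log2(FPKM + 1) scale with 95% intervals from limma. Filled points were called (adjusted p under 0.05). BBX32-10 lies below Col-0 in both lights for ADG1 and DPE2, above it in LL and below it in HL for GBSS1, and GPT2 is lower by 2.17 in HL.

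The lines were also compared with each other, since the study asked whether they act alike. In LL, hy5-2 exceeded BBX32-10 in DPE2 by 1.05, in ADG1 by 0.90, in GPT2 by 0.89 and in GWD1 by 0.41, and lay below it in BAM3 by -0.95 and in BAM9 by -0.79, with adjusted p from 3.84e-08 to 0.0204. The GPT2 call was kept in 4 of 8 fits without a library and the GWD1 call in 5 of 8. In HL, hy5-2 exceeded BBX32-10 in GPT2 by 2.39, in GBSS1 by 1.58, in ADG1 by 0.99, in GWD1 by 0.92 and in DPE2 by 0.92, with adjusted p from 2.41e-08 to 2.32e-05. It was lower in BAM9 by 0.92 on the log2 scale (adjusted p = 0.000366) and in BAM1 by 0.52 (adjusted p = 0.0379), the latter lost with rescaled libraries, no filter, only the groups compared or the replicate block. APL3 was at -0.27 in LL (adjusted p = 0.0727) and was called without replicate 4 of hy5-2 LL (-0.33) or of BBX32-10 LL (-0.36). GBSS1 did not differ detectably between the lines in LL (0.0037, 95% interval -0.28 to 0.29). In HL, BAM3 was at 0.46 in this comparison (adjusted p = 0.075), and at 0.64 (adjusted p = 0.0105) without replicate 1 of BBX32-10 HL. Over all tested genes this comparison of lines had a median of -0.11 in LL and in HL, which rescaling the libraries moved to -0.02 and -0.0091.

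The 4 BBX32-10 HL plants were not alike. Replicate 1, whose BBX32 level of 364 FPKM was the lowest of the line's HL libraries, held the highest level of the group for 7 of the 10 genes and the lowest for the other 3, APL3, BAM1 and BAM9. As a percent of the Col-0 HL mean, it stood at 73.1% for ADG1, 63.2% for GBSS1, 78.8% for GWD1, 111% for BAM3 and 35.4% for GPT2. Replicate 4, with BBX32 at 1049 FPKM, stood at 46.2% for ADG1, 44.3% for GBSS1, 42.8% for GWD1, 74.5% for BAM3 and 18.8% for GPT2. Levels did not run in the order of BBX32 throughout: replicate 3, with BBX32 at 922 FPKM, lay below replicate 4 for GBSS1 (39.1%), BAM3 (59.3%) and GPT2 (12.3%). In replicate order, BAM9 was at 112%, 193%, 185% and 265% of the Col-0 HL mean. BAM1 was at 103.4%, 194%, 106% and 234%, so that replicates 1 and 3 were alike. Other groups also had single libraries at the extreme for many of the 10 genes. In hy5-2 HL, replicate 1 was the lowest for 7 and replicate 3 the highest for 6. In Col-0 HL, replicate 3 was the highest for 6. Whether the BBX32 level plays a part in the differences among the BBX32-10 HL plants was not tested. Without replicate 1 of BBX32-10 HL, the 4 called interactions remained called, at -1.76 for GBSS1, -0.72 for GWD1, -2.10 for BAM3 and -2.07 for GPT2. For each gene this was the largest interaction in size among the 16 fits that left out a library. Only 3 of those 16 fits kept the GWD1 call.

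**Figure D4:**
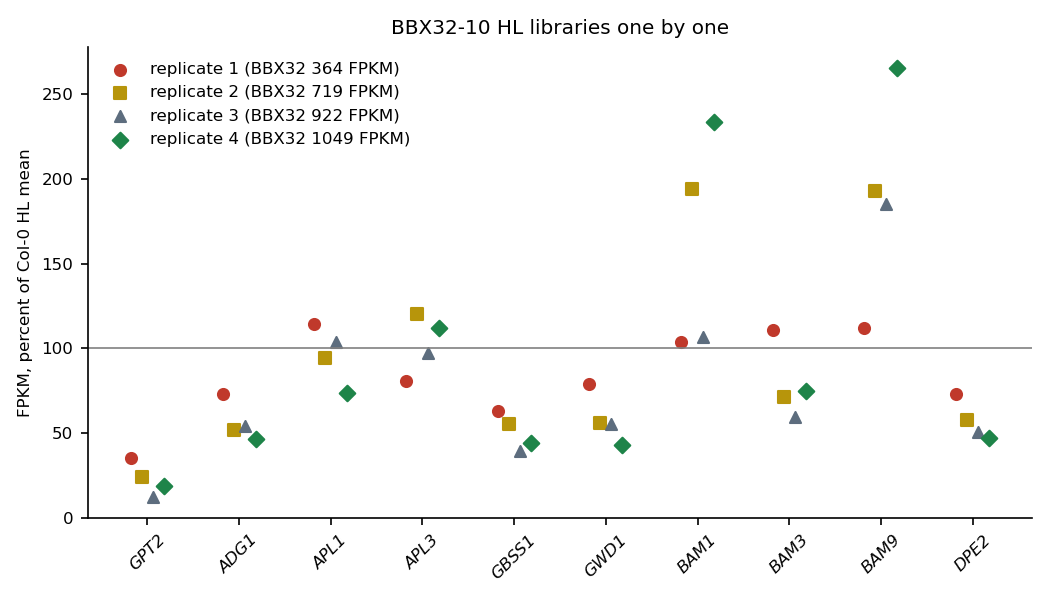
Level of each gene in each BBX32-10 HL library as a percent of the Col-0 HL mean (line at 100), with the BBX32 level of the library in the key. Replicate 1, with the lowest BBX32 level, is the highest point for 7 genes and the lowest for APL3, BAM1 and BAM9.

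Pairs of the 10 genes were compared over the 24 libraries by Pearson r of log2(FPKM + 1). The r values are a description, since libraries of a group share their treatment, and only some pairs are named. ADG1 and GWD1 followed each other with r = 0.93, and with r = 0.86 after each group's mean was removed. GBSS1 and BAM3 had r = 0.83, and 0.80 within groups. GPT2 and GBSS1 had r = 0.90 over all libraries but 0.11 within groups. BAM9 ran opposite to ADG1 and DPE2, with r of -0.86 and -0.84 over all libraries and -0.46 and -0.41 within groups. BAM1 and APL1 had r = -0.25 over all libraries and -0.73 within groups.

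The genes whose levels over the 24 libraries were most like GPT2 were AT1G64140 and AT3G10185, a gibberellin-regulated family gene, each with r = 0.951, then PAP17, a purple acid phosphatase, with r = 0.948, AT4G10430 with 0.941 and AT5G54130 with 0.936. Of these, AT1G64140 and PAP17 stayed among the 5 most alike under a pseudocount of 0.1, a mean of at least 5 FPKM and rescaled libraries. For BAM3 the most alike were AT1G17100, with r = 0.977, and the catalase gene CAT2, with r = 0.965. For GBSS1 they were AT2G20830, with r = 0.969, and the metallothionein gene MT2A, with r = 0.968. For ADG1 they were AT4G13800, with r = 0.983, and the translation factor gene ELF5A-1, with r = 0.977. For DPE2 they were AT3G09450, with r = 0.981, and MIP1A, which encodes a small B-box protein, with r = 0.978. Under the same alternatives, MT2A and ELF5A-1 were not among the most alike with rescaled libraries, nor was AT3G09450 at a mean of at least 5 FPKM, and the other genes named for BAM3, GBSS1, ADG1 and DPE2 were kept under all 3.

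Another 44 genes of starch synthesis, starch breakdown and plastid sugar transport were set beside the 10, and 43 of them were tested. HL in Col-0 called 30 of the 43, 25 higher and 5 lower, with a median of 0.35 on the log2 scale. Over all tested genes it called 51.6%, 30% higher and 21.6% lower. All 14 called breakdown genes were higher, 10 of 11 called synthesis genes were higher, and 4 of 5 called transport genes were lower. In BBX32-10, HL called 15 of the 43, with 11 higher and 4 lower and a median of 0.09, beside 19.6% of all tested genes. In hy5-2 it called 26, with 22 higher and 4 lower and a median of 0.34, beside 43.5% of all tested genes. The response differed between BBX32-10 and Col-0 for 10 of the 43, 3 with a higher and 7 with a lower value. That count was near the share over all tested genes, 19.8%, with 6.95% higher and 12.9% lower.

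In Col-0, HL raised BAM5, a cytosolic β-amylase, by 2.42 ± 0.60 (log2, SE), and the α-amylase gene AMY2 by 1.35 ± 0.19, and it lowered pGlcT, the plastid glucose transporter, by 1.43 ± 0.18. BAM5 varied widely among plants, from 15.8 to 117 FPKM in Col-0 LL and from 137 to 537 FPKM in Col-0 HL. In BBX32-10, BAM5 rose by 3.03 and BAM6, another β-amylase, by 1.09, and PPT2, a phosphoenolpyruvate transporter, fell by 1.03. In hy5-2, BAM5 rose by 2.19, AMY2 by 1.24 and pGlcT fell by 1.27. PWD, the second granule kinase, was also chosen after its values were seen. In Col-0 it went from 24.3 ± 1.502 FPKM (SD, n = 4) to 62.6 ± 3.29 FPKM in HL and in BBX32-10 from 37.6 ± 1.09 to 51.8 ± 2.75 FPKM, with an interaction of -0.88 (adjusted p = 0.00108). TPT, the triose phosphate exporter of the envelope, was chosen in the same way: HL lowered it by 0.88 in the wild type but by 0.28 in BBX32-10, an interaction of 0.60 (adjusted p = 0.000149).

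BBX32-10 differed from Col-0 in 20 of the 43 in LL, 8 higher and 12 lower, and in 22 in HL, 6 higher and 16 lower. The LL count was near the share over all tested genes, 42.5%, with 25.8% higher and 16.7% lower. In HL that share was 23.6%, with 10.9% higher and 12.7% lower. In HL all 9 called breakdown genes were lower, among them BAM6 by 1.42 on the log2 scale and PHS2, the cytosolic glucan phosphorylase, by 1.14. In LL, BAM6 was lower by 1.65 and PPT2 by 1.15, and PPT1, its paralogue, was higher by 1.04. The limma comparisons of hy5-2 with Col-0 called 0 of the 43 in LL and 0 in HL, with 5 and 6 at an unadjusted p under 0.05 and 0 called by limma voom in either. Over all tested genes they called 0.371% in LL and 2.41% in HL. The hy5-2 interaction also called 0, with 1 at an unadjusted p under 0.05 and 0 by limma voom, beside 0.652% of all tested genes.

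**Figure D5:**
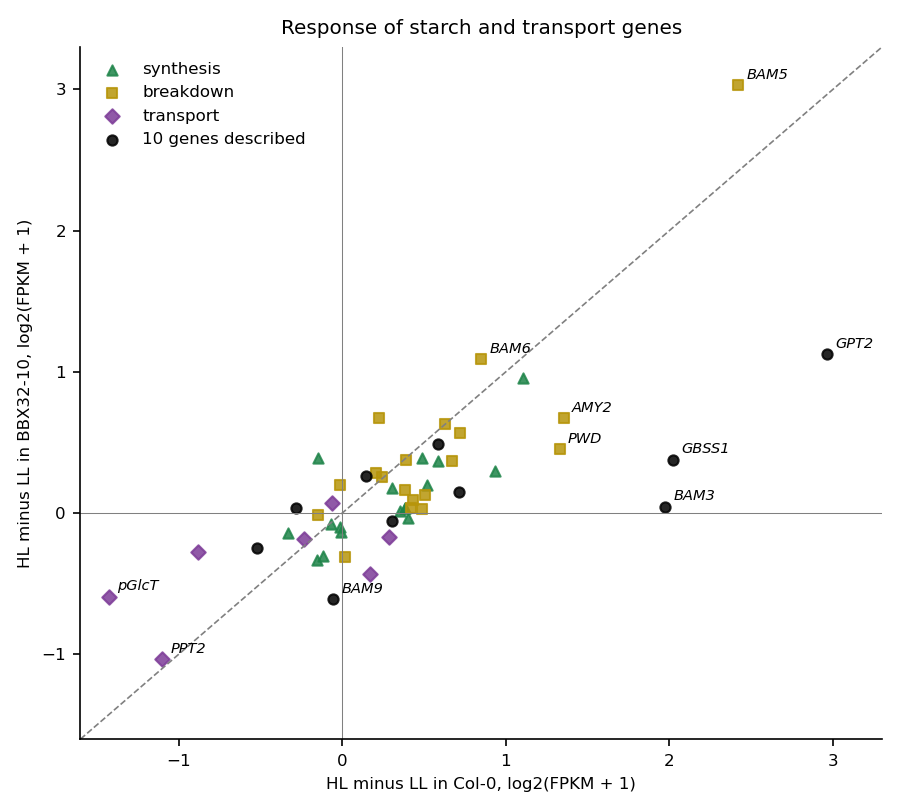
HL minus LL in BBX32-10 against HL minus LL in Col-0, both on the log2(FPKM + 1) scale, for the 10 genes (black) and the 43 other tested genes of starch synthesis, breakdown and plastid transport. On the dashed line both responses are equal. GPT2, GBSS1 and BAM3 lie far below it, and BAM5 lies above it at 3.03 in BBX32-10 and 2.42 in Col-0.

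Since starch genes follow the time of day, 8 clock genes were read beside them. HL called 5 of the 8 in Col-0, 4 higher and 1 lower, and 3 each in BBX32-10 and hy5-2. The shares over all tested genes were 51.6%, 19.6% and 43.5%, and with 8 genes the counts are not read beyond them. CCA1, a morning-phased MYB factor, was higher after HL by 0.68 for Col-0, 0.37 for BBX32-10 and 0.71 for hy5-2, while LHY, its paralogue, was lower by 0.77, 0.94 and 0.69 on the log2 scale. In BBX32-10, 5 of the 8 differed from Col-0 in LL, 2 higher and 3 lower, and 5 in HL, all lower, among them PRR5 by 1.14 and ELF4 by 0.97. Over all tested genes this comparison called 42.5% in LL and 23.6% in HL. In hy5-2, 1 of the 8 was called against Col-0 in HL, TOC1, which was lower by 0.50, beside 2.41% of all tested genes. The response to HL differed between BBX32-10 and Col-0 for ELF4, by -1.44, and for GI, by -0.61, beside 19.8% of all tested genes. The part of clock gene levels in the starch gene results was not tested.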

How the data were processed

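Gene levels were deposited as FPKM. The submitters' processing notes name CASAVA, HISAT2 2.0.5, HTSeq 0.6.1, DESeq2 1.20.0, DESeq and the TAIR10 build, and the gene lengths and strand use behind the FPKM are not given in the sources used here. Dividing out the annotated length gave whole fragments (within 0.05) in all libraries for 99.347% of genes, and 35408723 to 49341933 fragments per library. For 161 more genes another length was sought that made their values whole, and very high values were counted as whole. The resulting 99.993% of whole values is thus partly fixed by that search. Replicate pairs differed beyond sampling noise (chi-square per degree of freedom 13.5 to 224).

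limma 3.58.1 in R 4.3.3 was fitted to log2(FPKM + 1) over all 24 libraries, with 1 mean per group and a variance trend, for the 17788 genes with at least 1 FPKM in at least 4 libraries. Tests were two-sided, adjusted by Benjamini-Hochberg over these genes. Fold changes of low genes are understated by the added 1.

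The 10 genes and the other lists were chosen with earlier results of these data known. Among the other starch genes, up to 3 per comparison called with a log2 change of at least 1 were named. The most alike genes (5 for GPT2, 2 for each other gene) were those with the highest Pearson r over 24 libraries. The fit was repeated with no filter, with a mean of at least 5 FPKM, with a pseudocount of 0.1, with libraries rescaled by median ratios (factors 0.869 to 1.14), with only the groups compared, with a replicate block and without each library in turn. limma voom on recovered fragments was added after seeing the data. Coordinates and sequences are from RefSeq TAIR10.1 (Python 3.11.15; similar genes by blastn 2.17.0).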

Additional observations from a re-analysis of the deposited data

Results flagged for a closer look

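Over the 10 genes and 6 groups of 4 libraries, 60 sets of 4 values were examined. In 3 of them a library lay far from the other 3, where chance gives about 1 in 20. APL1 was at 59.1 FPKM in replicate 2 of Col-0 HL, above the other 3. ADG1 was at 210.3 FPKM in replicate 4 of Col-0 LL, above the other 3. GPT2 was at 17.8 FPKM in replicate 3 of BBX32-10 LL, where the other 3 lay between 3.91 and 5.80; without it the HL rise of GPT2 in BBX32-10 was 1.54 and the interaction with HL was -1.42 (adjusted p = 0.00291).

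The response to HL differed between BBX32-10 and Col-0 by the limma interaction for 4 genes, by -1.64 for GBSS1, -0.56 for GWD1, -1.93 for BAM3 and -1.84 for GPT2 on the log2 scale.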

How the results depend on the processing

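For the 110 gene comparisons, the alternative fits gave 1810 results, many of them read from the same fit. Of these results, 1721 kept the side of the threshold, 72 lost a call, 17 gained one and 0 reversed a call. Among the 1721 were 47 in which a value that was not called changed sign. The members called fell to 0 for hy5-2 against Col-0 in LL with no filter, rescaled libraries or only the groups compared, to 0 for hy5-2 against Col-0 in HL with rescaled libraries, and to 1 for HL in BBX32-10 with only the groups compared. Leaving out single libraries gave 3 to 5 members for HL in BBX32-10, 0 to 1 for hy5-2 against Col-0 in LL and 0 to 1 in HL, and 3 to 4 for the interaction of BBX32-10 with HL. The cause was not tested.

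Over all genes, rescaling gave 268 calls in place of 428 for hy5-2 against Col-0 in HL and 48 in place of 116 for its interaction. With only the groups compared, the calls were 1982 in place of 3487 for HL in BBX32-10, 1940 in place of 4199 for BBX32-10 against Col-0 in HL, 648 for hy5-2 against Col-0 in HL, 292 for its interaction, and 3527 in place of 5788 for hy5-2 against BBX32-10 in HL.

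Libraries with the same replicate number seldom deviated alike: 12 of 60 same-number pairs had a correlation of deviations over 0.1 (median -0.03). The labels do not state whether the numbers mark a shared tray or day, and these correlations cannot settle it. With the replicate block, the calls of APL3 (HL in Col-0), GWD1 (interaction of BBX32-10, -0.56) and BAM1 (hy5-2 against BBX32-10 in HL) were lost, with adjusted p of 0.0546, 0.0568 and 0.0528. BAM9, with as few as 280 fragments, and GPT2, with 263, carry the most counting error.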
